A study of Mus musculus with 6 samples.

Results

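Interferon-stimulated genes are the genes that cells switch on when an interferon binds its receptor, together with the receptors, sensors and transcription factors of that circuit. A list of 40 such genes was matched to the deposited tables, with rows selected by gene symbol. Of these, 38 were among the 18002 genes listed for each library, and Mx1 and Mx2 were not analysed here. After removal of rows with low counts, 34 of the 38 were tested among 13708 genes in all, and 4 (Rsad2, Oas2, Oas3 and Oasl1) were too low to pass. The list was followed in every single library as well as between culture formats.

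The cells were primary cells from the periosteum of the mouse jawbone, the sheath of bone that holds skeletal progenitors. They had been cultured for 48 h as spheroids, which are free aggregates of cells, or as a flat monolayer, and total RNA was sequenced from 3 libraries of each format. No genotype, strain, age, sex or agent is given for either format. The labels leave unsaid if the libraries are independent cultures, so the p-values reflect the spread among these 6 libraries alone, which could be technical. Library totals lay between 21701046 and 21889110 counts, and the median biological coefficient of variation between libraries of a format was 3.23% per gene. Mesenchymal markers were high in every library, with Prrx1 between 670 and 800.1 CPM (counts scaled to library size) and Pdgfrb between 739 and 928 CPM. These markers do not by themselves show that the cells came from the periosteum. Spheroids held more RNA of macrophage markers, with a summed level of 151 to 158 CPM against 31.8 to 35.7 CPM for 10 genes, and all of the tested endothelial, skeletal muscle, Schwann and osteoclast markers were also higher there.

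Type I interferons signal through a receptor made of the IFNAR1 and IFNAR2 chains, and interferon gamma through IFNGR1 and IFNGR2. Janus kinases bound to these chains phosphorylate transcription factors such as STAT2, which with IRF9 is part of the complex that binds the interferon-stimulated response element in target promoters, while the interferon gamma signal reaches the gamma-activated site. The products of the target genes sense or destroy foreign RNA, hold back viral translation and entry, and feed back on the pathway, and a low tonic output is known in many cultured fibroblast-like cells without infection.

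The response element can be read in the promoters of several members whose levels moved most between libraries. RefSeq promoter windows (GRCm38.p6, 250 bases before to 50 after each start) were held for 32 of the 38 listed members. The core of the response element, searched on both strands as GAAA, any 2 bases and GAAA again, occurred in the windows of 14 of 32 members (43.8%) and of 3.99% of 27025 genes. At least 2 matches, overlapping ones included, were found in 7 members and in 0.266% of genes. The gamma-activated site, searched as TTC, any 3 bases and GAA, occurred in 9 of 32 members (28.1%) and in 9.55% of genes. No core of the response element was found in the windows of Irf7, Oasl2 and Ifi44, whose levels also varied widely between libraries. A match is a stretch of letters and not a measured binding site. The 200 bases before the start are printed for 5 members whose values are described below, 5′ to 3′ along the gene, with every match to the core in capitals. For Ifit3 and Ifit3b the start used lies inside the annotated gene, which begins at 34583119 and 34607530, so their windows fall within the gene spans. Isg15 lies on the minus strand at chr4:156200819-156201018, Bst2 on the minus strand at chr8:71537473-71537672, and the other windows on the plus strand of chromosome 19 at chr19:34640689-34640888 for Ifit1, chr19:34583329-34583528 for Ifit3 and chr19:34607757-34607956 for Ifit3b.
Isg15: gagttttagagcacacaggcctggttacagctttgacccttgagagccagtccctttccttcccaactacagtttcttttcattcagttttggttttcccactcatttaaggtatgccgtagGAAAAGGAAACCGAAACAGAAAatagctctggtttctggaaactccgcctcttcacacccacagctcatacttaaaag
Bst2: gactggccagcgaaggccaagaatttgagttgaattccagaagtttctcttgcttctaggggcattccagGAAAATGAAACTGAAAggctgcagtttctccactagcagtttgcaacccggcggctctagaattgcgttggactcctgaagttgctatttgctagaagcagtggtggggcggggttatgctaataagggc
Ifit1: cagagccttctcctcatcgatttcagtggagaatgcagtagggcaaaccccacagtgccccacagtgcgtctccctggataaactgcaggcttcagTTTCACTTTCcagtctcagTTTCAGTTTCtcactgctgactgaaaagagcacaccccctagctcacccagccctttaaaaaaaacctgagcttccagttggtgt
Ifit3: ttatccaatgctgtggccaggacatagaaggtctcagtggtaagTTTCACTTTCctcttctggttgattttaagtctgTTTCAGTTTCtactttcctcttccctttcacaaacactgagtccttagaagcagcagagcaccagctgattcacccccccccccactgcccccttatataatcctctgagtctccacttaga
Ifit3b: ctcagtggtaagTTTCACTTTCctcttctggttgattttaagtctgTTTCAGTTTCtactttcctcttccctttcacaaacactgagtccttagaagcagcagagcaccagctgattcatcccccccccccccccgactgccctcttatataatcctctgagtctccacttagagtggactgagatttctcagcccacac
In Isg15, 3 matches overlap in a single run that ends 57 bases before the start. Bst2 holds 2 overlapping matches. Ifit1, Ifit3 and Ifit3b each carry 2 separate matches that read on the opposite strand (TTTCACTTTC and TTTCAGTTTC). The aligned parts of the Ifit3 and Ifit3b windows were 98.8% identical, and their transcripts were 98.0% identical, with 31.7% of the 100-base windows of Ifit3 also present in Ifit3b. Reads could be split between this pair by the counting, so the separate levels of Ifit3 and Ifit3b are uncertain. The spans of other annotated genes overlap those of Ifnar2, Ifih1, Dhx58, Eif2ak2, Isg15, Usp18, Trim25 and Rtp4. Overlap of exons was not checked and the use of strand is not stated, so some reads of such pairs may be shared.

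Across formats, all 4 receptor chains were higher in spheroids, and of the 30 other tested members 14 were lower, 2 higher and 14 did not pass. In edgeR's quasi-likelihood test with Benjamini-Hochberg adjustment, 14 of 34 tested members were lower in spheroids, where 37.1% of all tested genes were lower, and 6 of 34 were higher, where 37.1% of all genes were higher. In this test the share of lower members is thus close to the background, and that of higher members lies below it. The median log2 fold change of the members was -0.62 against -0.00 for all tested genes. At 2-fold or more, 7 members were lower, against a background of 6.67%, and 1 was higher, against 12.7%. All spheroid libraries stood below all monolayer libraries for 13 members (37.8% of all genes) and above them for 6 (38.0%), and the formats overlapped for 15. In bulk RNA, fewer cells of a type and less RNA per cell cannot be told apart. The lower count rests on single libraries: without monolayer replicate 1 it was 21, without monolayer replicate 3 it was 9, and without spheroid replicate 2 or without spheroid replicate 3 it was 8. In the same order, 5021, 4937, 4845 and 4904 of all tested genes were lower. The median of the members was -0.34 without monolayer replicate 3. The lower count also depended on the method, at 23 without edgeR's robust option, 19 with limma-voom, 18 on FPKM and 17 with DESeq2. In those fits 4498 to 5083 of all tested genes were lower.

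**Figure D1:**
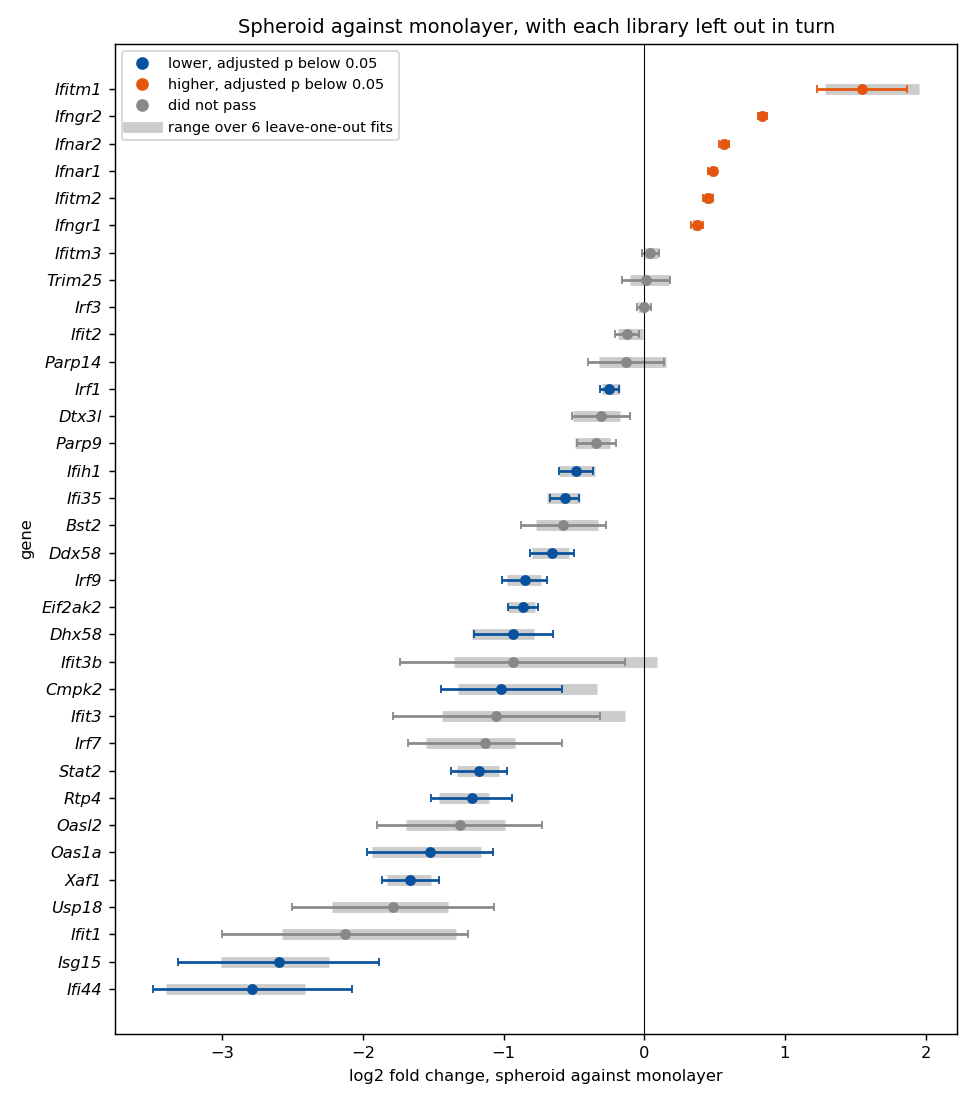
Log2 fold change of each of the 34 tested members, spheroid against monolayer (points, with bars of 1 SE from edgeR), coloured by call; grey bands give the range over the 6 fits that each leave out 1 library. The 4 receptor chains have narrow bands between 0.34 and 0.86, while Ifit3b crosses 0 and Ifi44 runs from -3.40 to -2.41.

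What set the members apart was the spread between libraries of the same format. The quasi-dispersion, edgeR's measure of how far libraries of a format differ beyond counting noise, placed 17 of 34 tested members among the highest 1% of genes, which holds 0.999% of all tested genes. Among members with a mean of at least 1 CPM, the highest monolayer library exceeded the lowest by 1.5-fold or more for 15 of 31, against 3.34% of 12444 genes. In spheroids that ratio was reached by 9 of 32 members, against 2.98% of 12900 genes. The median ratio of the highest to the lowest monolayer was 1.52 over the tested members and 1.09 over all tested genes. Leaving out monolayer replicate 1 left 11 members among the highest 1%, and leaving out any other library left between 14 and 20. The RNA of Ifit3 ranked 5 and that of Ifit1 ranked 6 in quasi-dispersion among the 13708 genes.

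**Figure D2:**
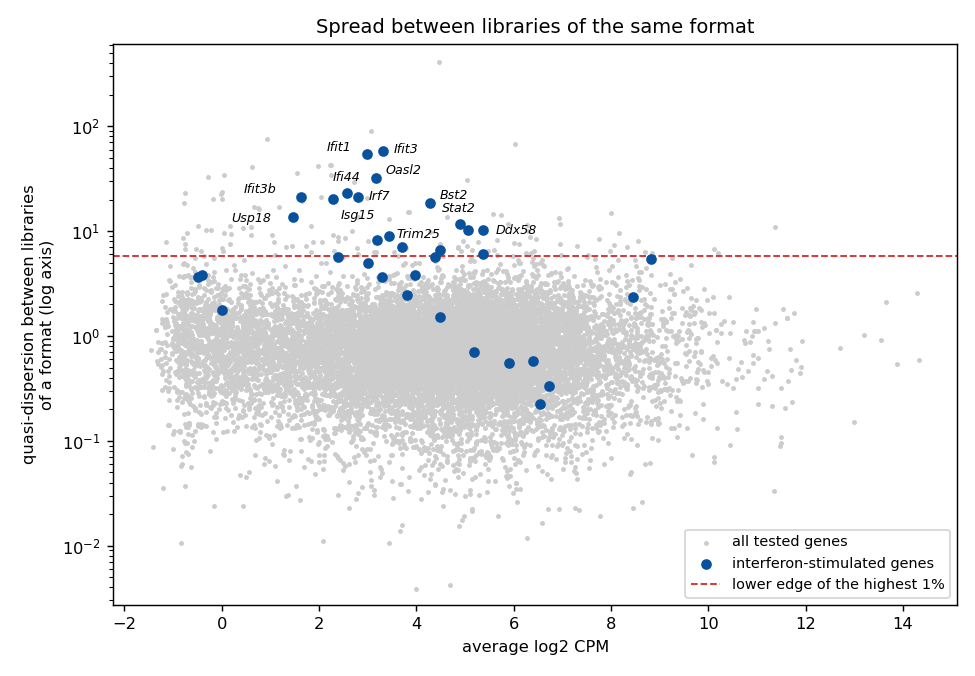
Quasi-dispersion between libraries of the same format (log axis) against average log2 CPM for all 13708 tested genes (grey) and the 34 members (blue); the dashed line marks the lower edge of the highest 1%. At similar abundance, Ifit3, Ifit1 and Oasl2 lie far above most genes, while the receptors lie within the grey cloud.

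The spread ran in the same direction across members. For each library, the log2(CPM + 0.5) of 31 members with a mean of at least 1 CPM was set against the mean of the other 2 libraries of its format. The median difference was -0.48 in monolayer 1, 0.09 in monolayer 2 and 0.30 in monolayer 3. In spheroids it was 0.12 in spheroid 1, -0.06 in spheroid 2 and -0.10 in spheroid 3. Over all tested genes the same median stayed between -0.01 and 0.01 in all 6 libraries. In monolayer 1, 25 of 31 members lay below both other monolayers, as did 33.4% of all genes. Monolayer 3 was the highest monolayer for 21 members, against 34.2% of genes, and spheroid 1 the highest spheroid for 23, against 29.99% of genes.

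On the log2(CPM + 0.5) scale, which slightly lowers the ratios of low genes, 12 of 31 members were at least 1.5-fold higher in monolayer 2 than in monolayer 1, as were 0.687% of 12812 genes, and 12 were higher in monolayer 3 than in monolayer 1, as were 0.710%. Only 3 members were that far higher in monolayer 3 than in monolayer 2, as were 0.484% of genes. In spheroids, 7 members were at least 1.5-fold higher in spheroid 1 than in spheroid 2, as were 0.343% of genes. Against spheroid 3, 6 were higher, as were 0.328% of genes. No member was 1.5-fold lower in any of these pairs, which is close to the share of all genes, 0.265% to 0.461%. Monolayer 1 stood above all 3 spheroids for 15 of 34 members, compared with 23 for monolayer 2 and 26 for monolayer 3, where all tested genes gave 43.8% to 44.2%. Macrophage markers had a median difference of -0.03 in monolayer 1, over 9 markers with a mean of at least 1 CPM across all 6 libraries. Only 5 of these reached a mean of 1 CPM in the monolayers themselves. Their summed level was 31.8 to 35.7 CPM over the monolayers, of which Lyz2 alone gave 17.2 to 19.8 CPM. The part of macrophages in the result was not tested. Osteoclast markers, of which 4 had a mean of at least 1 CPM across all 6 libraries, had median differences of -0.28, 0.17 and 0.08 in monolayers 1, 2 and 3. These medians rest largely on few reads. In that order Atp6v0d2 had 2, 5 and 5 reads, Mmp9 26, 52 and 20, Acp5 45, 62 and 63, and Ctsk 3820, 3891 and 3909. The part of osteoclast markers in the result was not tested. Of 6 markers of plasmacytoid dendritic cells, which make much interferon, Siglech, Ccr9 and Ly6d were each below 0.3 CPM in every library. The other 3 are also made by other cells, with Tcf4 at 123 to 142 CPM, Bst2 at 13.0 to 30.6 CPM and Irf8 at 0.461 to 3.81 CPM, and Irf8 was higher in spheroids (2.70 ± 0.22, adjusted p = 9.78e-13).

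**Figure D3:**
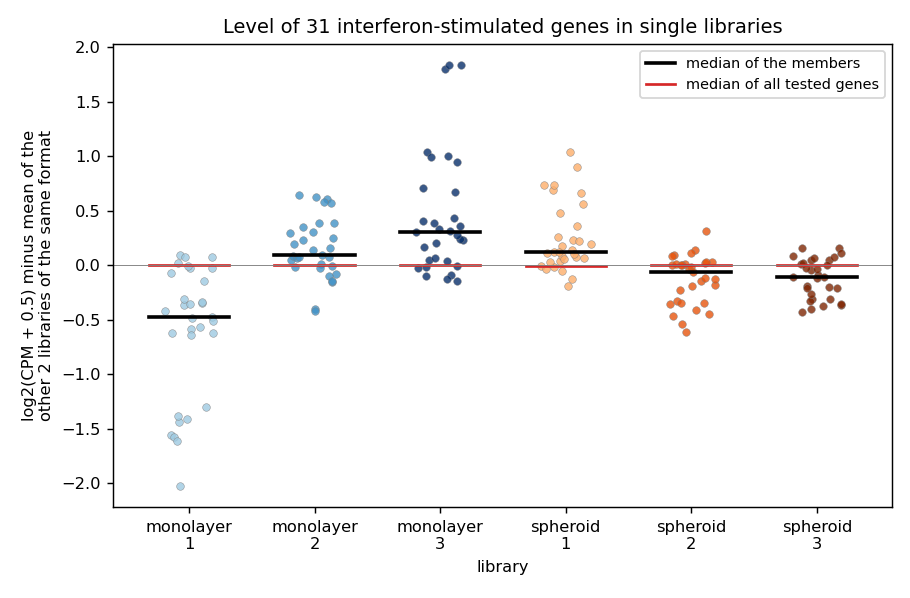
Each point is 1 of 31 members in 1 library, as log2(CPM + 0.5) minus the mean of the other 2 libraries of its format; black lines are the medians of the members and red lines those of all tested genes. The black line falls to -0.48 in monolayer 1 and reaches 0.30 in monolayer 3 and 0.12 in spheroid 1, while the red lines stay near 0.

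The receptor chains were the steadiest members. Ifnar1, a chain of the type I receptor (gene ID 15975, chromosome 16, 91485032 to 91510523, GRCm38.p6), had 86.9, 87.3 and 89.7 CPM in monolayers 1, 2 and 3 and 123, 121 and 126 CPM in spheroids 1, 2 and 3. Its partner Ifnar2 (chromosome 16, 91372783 to 91405589) had 69.8, 67.8 and 64.8 CPM in the monolayers and 99.0, 100.3 and 100.5 CPM in the spheroids. Every spheroid lay above every monolayer for both chains. Ifngr2, the accessory chain of the interferon gamma receptor and a neighbour of these genes on chromosome 16, had 65.5, 65.6 and 67.8 CPM against 117, 119 and 119.7 CPM. Ifngr1, the ligand-binding chain, had 50.1, 53.5 and 51.6 CPM against 65.6, 67.2 and 68.6 CPM. All 4 chains were called higher, by 0.49 ± 0.03 (Ifnar1), 0.57 ± 0.04 (Ifnar2), 0.38 ± 0.04 (Ifngr1) and 0.84 ± 0.03 (Ifngr2) on the log2 scale (SE, adjusted p from 2.45e-20 to 6.89e-10). The highest library of a format exceeded the lowest by at most 1.08-fold for any chain. None of the 4 was among the highest 1% in quasi-dispersion, and monolayer 1 did not stand apart.

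The transcription factors split between steady and variable genes. Irf3, which is activated by phosphorylation and not by a rise in its RNA, had 37.5, 37.0 and 34.2 CPM in the monolayers and 36.9, 36.1 and 35.5 CPM in the spheroids, and differed by -0.00 ± 0.05 on the log2 scale (adjusted p = 0.974). Irf1, an early target of interferon gamma, had 25.5, 23.5 and 24.1 CPM against 21.9, 18.4 and 21.2 CPM and was lower in spheroids by a small margin (-0.25 ± 0.06, adjusted p = 0.00106). For Irf1, monolayer 1 was the highest monolayer. The DNA-binding part of the type I complex, Irf9, had 23.9, 30.4 and 31.7 CPM against 17.7, 16.9 and 13.2 CPM (-0.85 ± 0.16, adjusted p = 0.00483). Its partner Stat2 had 32.2, 42.0 and 48.8 CPM against 19.7, 16.7 and 18.1 CPM (-1.18 ± 0.20, adjusted p = 0.00555). Both were lower in every spheroid than in every monolayer, and both were lowest among the monolayers in replicate 1. Some reads of Stat2 could belong to Apof, whose annotation overlaps it.

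Irf7, the amplifier of type I interferon production, varied far more. Its level was 4.51, 11.70 and 11.99 CPM in the monolayers and 6.44, 3.06 and 3.36 CPM in the spheroids. Spheroid 1 thus lay above monolayer 1, and the formats overlapped. The log2 fold change of -1.13 ± 0.55 did not pass (adjusted p = 0.131). Without monolayer replicate 1 it was -1.47 and passed at an adjusted p of 0.0193.

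The cytosolic sensors of viral RNA were all lower in spheroids. Ddx58, which encodes RIG-I, had 41.2, 52.4 and 58.7 CPM in the monolayers and 33.3, 32.5 and 30.9 CPM in the spheroids (-0.66 ± 0.16, adjusted p = 0.0172). Ifih1, which encodes MDA5, had 9.48, 11.2 and 13.4 CPM against 7.57, 9.42 and 7.35 CPM (-0.49 ± 0.12, adjusted p = 0.00237). For Ifih1, monolayer 1 and spheroid 2 nearly touched. Dhx58, which encodes LGP2, had 4.97, 8.09 and 7.38 CPM against 4.89, 2.88 and 2.95 CPM (-0.93 ± 0.28, adjusted p = 0.0236). In Dhx58 monolayer 1 and spheroid 1 were level. The call of Ddx58 was lost without any of the 4 libraries monolayer 2 and spheroids 1, 2 and 3, with adjusted p up to 0.0636, and that of Dhx58 without monolayer 3 or spheroids 2 or 3, with adjusted p up to 0.0934.

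**Figure D4:**
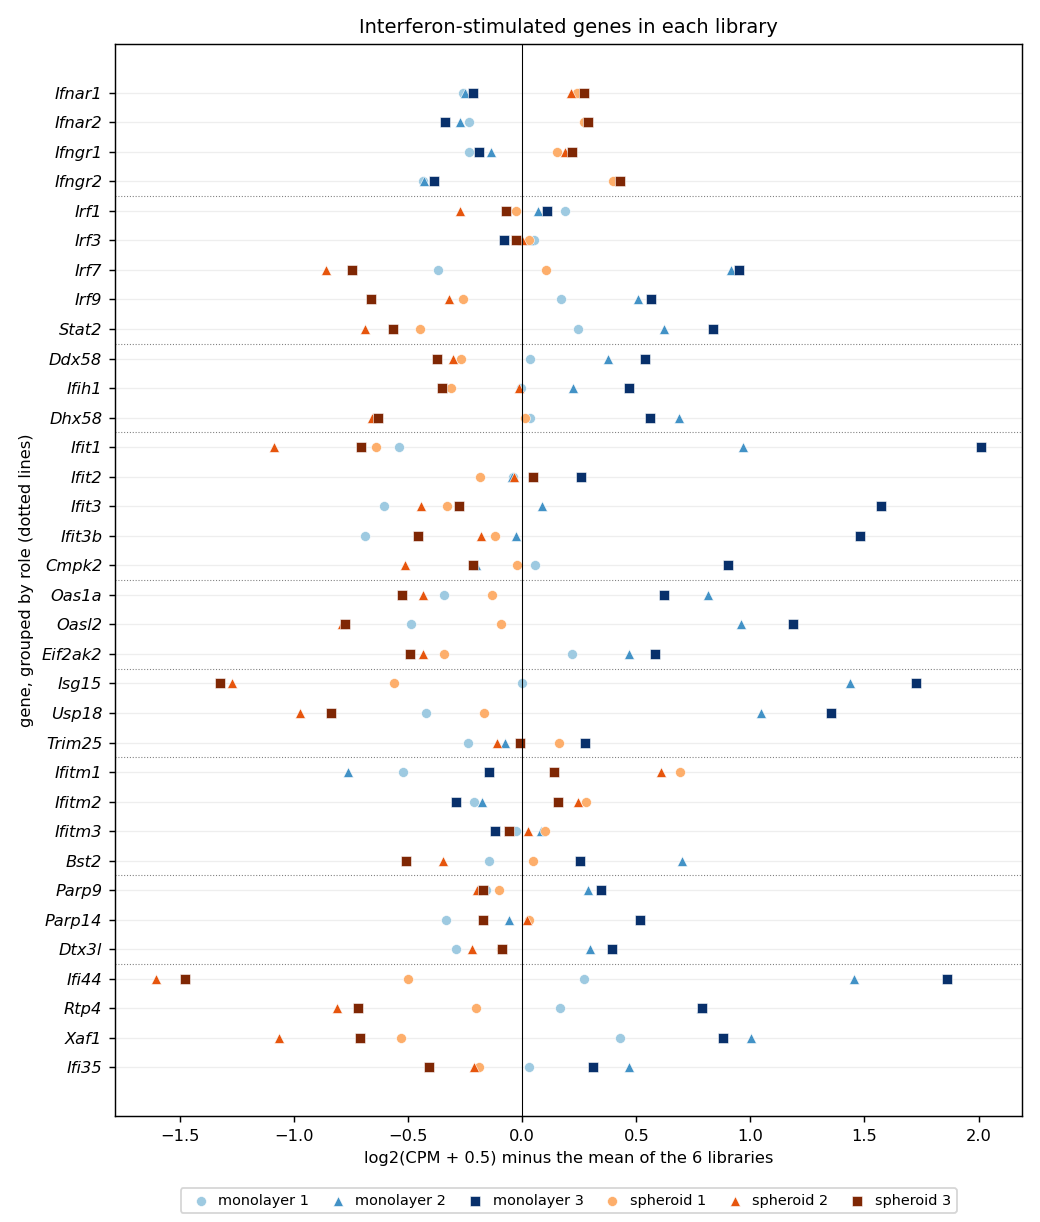
Level of each tested member in each library as log2(CPM + 0.5) minus the mean of the 6 libraries, with members grouped by role from receptors at the top to other induced genes at the bottom. Blue symbols are monolayers and orange to brown symbols spheroids; the receptors form tight, separate clusters, whereas for Irf7, Oasl2 and Usp18 monolayer 1 (pale circle) lies among the spheroids.

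Isg15, which encodes a ubiquitin-like protein attached to other proteins, was the member with the second largest change between formats (gene ID 100038882, chromosome 4, 156199424 to 156200818). It had 3.25, 9.67 and 11.9 CPM in monolayers 1, 2 and 3, from 69.99, 209 and 258 reads, and 2.04, 1.05 and 0.998 CPM in spheroids 1, 2 and 3, from 45, 23 and 22 reads. Every spheroid lay below every monolayer, but monolayer 1 was closer to spheroid 1 than to the other monolayers. The mean was 8.27 ± 4.49 CPM in monolayers and 1.36 ± 0.59 CPM in spheroids (SD, n = 3), 6.05-fold higher in monolayers (log2 fold change -2.60 ± 0.71, adjusted p = 0.0286). That call was lost when any single library other than monolayer 1 was left out, with adjusted p up to 0.0944. Usp18, the protease that removes ISG15 and damps the type I receptor, followed with 1.44, 4.86 and 6.13 CPM against 1.81, 0.823 and 0.953 CPM. Here spheroid 1 lay above monolayer 1, and the log2 fold change of -1.79 ± 0.72 did not pass (adjusted p = 0.0842). Trim25, a ligase that activates RIG-I, had 28.1, 31.5 and 40.2 CPM in the monolayers and 37.2, 30.6 and 32.9 CPM in the spheroids, with the same order of libraries within the monolayers but a log2 fold change of 0.01 ± 0.17 (adjusted p = 0.944).

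Ifi44, which encodes an interferon-induced antiviral protein, had the largest fall in spheroids (gene ID 99899, chromosome 3, 151730922 to 151749910). It had 4.70, 11.3 and 15.1 CPM in the monolayers and 2.54, 0.915 and 1.04 CPM in the spheroids, which put all spheroids below all monolayers. Its log2 fold change was -2.79 ± 0.71 (adjusted p = 0.0220), and the call was lost without monolayer 2, monolayer 3, spheroid 2 or spheroid 3, with adjusted p up to 0.0776. Xaf1, a pro-apoptotic binding partner of XIAP, was steadier, at 9.30, 14.1 and 12.9 CPM against 4.53, 2.97 and 3.95 CPM (-1.66 ± 0.20, adjusted p = 0.000123). Rtp4, a chaperone of membrane receptors, had 9.21, 14.4 and 14.4 CPM against 7.02, 4.44 and 4.76 CPM (-1.23 ± 0.29, adjusted p = 0.0152). These 3 genes and Ifi35, which had 15.6, 21.3 and 19.1 CPM against 13.3, 13.1 and 11.4 CPM, were each lower in every spheroid than in every monolayer. The calls of Xaf1 and Ifi35 held without any single library, and that of Rtp4 was lost without monolayer 3, spheroid 2 or spheroid 3, with adjusted p up to 0.0597.

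Among the genes of double-stranded RNA defence, Eif2ak2, which encodes the kinase PKR that stops translation, was the most abundant. It had 46.2, 55.0 and 59.5 CPM in the monolayers and 31.2, 29.2 and 28.0 CPM in the spheroids (-0.86 ± 0.11, adjusted p = 0.000380). The formats did not overlap. Oasl2, an oligoadenylate synthetase-like gene, had 5.25, 15.2 and 17.9 CPM against 7.07, 4.16 and 4.22 CPM (-1.31 ± 0.59, adjusted p = 0.110). In Oasl2 monolayer 1 lay below spheroid 1. Oas1a, which encodes a synthetase of the activator of RNase L, rested on few reads, 7, 29 and 24.5 in the monolayers and 10, 6 and 5 in the spheroids. It was called lower (-1.52 ± 0.45, adjusted p = 0.00446) although monolayer 1 lay below spheroid 1. Of the members too low for the test, Oas2 had 4 to 17 reads per monolayer and 1 to 9 per spheroid, Oasl1 3 to 30 and 2 to 9, and Oas3 3.13 to 14.9 and 2.95 to 11.3. In a fit without the filter, Oas2 and Oasl1 were lower in spheroids (-1.33, adjusted p = 0.0145, and -1.49, adjusted p = 0.00613) and Oas3 did not pass (-0.15, adjusted p = 0.802). The formats overlapped for Oas2 and Oasl1. For Oasl1, monolayer 3 held 30 reads, against 3 and 6 in monolayers 1 and 2 and 9, 3 and 2 in the spheroids.

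The IFIT genes, a cluster on chromosome 19 whose products bind foreign RNA ends, had their highest level in monolayer 3. Ifit1 (chromosome 19, 34640889 to 34650009) had 3.58, 11.1 and 23.4 CPM in monolayers 1, 2 and 3 and 3.31, 2.29 and 3.13 CPM in the spheroids. Ifit3 (34583119 to 34588982) had 5.30, 8.88 and 25.8 CPM against 6.53, 5.99 and 6.80 CPM. Ifit3b had 1.39, 2.50 and 8.02 CPM against 2.31, 2.20 and 1.72 CPM. Monolayer 1 was the lowest monolayer for each of these, and for Ifit3 and Ifit3b monolayer 1 was below every spheroid. None of them passed, with log2 fold changes of -2.13 ± 0.88 for Ifit1 (adjusted p = 0.0898), -1.05 ± 0.74 for Ifit3 (adjusted p = 0.266) and -0.94 ± 0.80 for Ifit3b (adjusted p = 0.349). Every spheroid lay below every monolayer for Ifit1, and its result depended on the fit: it passed with DESeq2 (adjusted p = 0.00657), with limma-voom (0.0110), on FPKM (0.0158 and 0.0207), without the robust option (0.000180) and without monolayer replicate 1 (0.0210). Oasl2 and Usp18 passed under the same 6 alternatives. Without monolayer replicate 3 the value of Ifit1 was -1.33, that of Ifit3 -0.14 and that of Ifit3b 0.09. Ifit2 was nearly level, with 13.3, 13.3 and 16.6 CPM against 12.1, 13.4 and 14.2 CPM. Ifit1 and Ifit3b overlap Ifit1bl1 in the annotation, and all 6 libraries held fractional counts for both. Cmpk2, a mitochondrial nucleotide kinase, had 14, 10 and 34 reads in the monolayers and 13, 6 and 10 in the spheroids, and the formats overlapped. It was called lower (-1.02 ± 0.43, adjusted p = 0.0396), but not without monolayer replicate 3 (-0.34), without spheroid replicate 2 or without spheroid replicate 3, nor with DESeq2, limma-voom or limma on FPKM (adjusted p from 0.0789 to 0.151). Its chromosome 12 neighbour Rsad2, which encodes viperin, had 3.50, 0 and 20.2 reads in the monolayers and 9.92, 6 and 8 in the spheroids.

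The members ranked the monolayers alike in many cases but differed in the size of the steps. Ifit3 was 2.91-fold higher in monolayer 3 than in monolayer 2 (95% interval 2.46 to 3.44) and Ifit1 2.11-fold (1.81 to 2.47), while Isg15 was 1.23-fold higher (1.02 to 1.48) and Irf7 1.02-fold (0.858 to 1.22). These are exact binomial intervals that cover counting error only. The steps between spheroids differed too. Between spheroid 1 and spheroid 2, Ifi44 was 2.77-fold (1.64 to 4.88), Usp18 2.20-fold (1.23 to 4.08), Irf7 2.10-fold (1.56 to 2.85) and Isg15 1.94-fold higher (1.15 to 3.36), whereas Ifit3 was 1.09-fold higher (0.854 to 1.39). Outside the list, the interferon-inducible chemokine gene Cxcl10 was also far higher in monolayer 3, with 4, 6 and 71 reads in the monolayers and 10, 12 and 16 in the spheroids. The immunity-related GTPase gene Iigp1 rose more evenly over the monolayers, with 2.79, 5.41 and 11.5 CPM against 3.26, 2.97 and 3.08 CPM in the spheroids. Cxcl10 and Iigp1 were singled out after their values were seen.

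**Figure D5:**
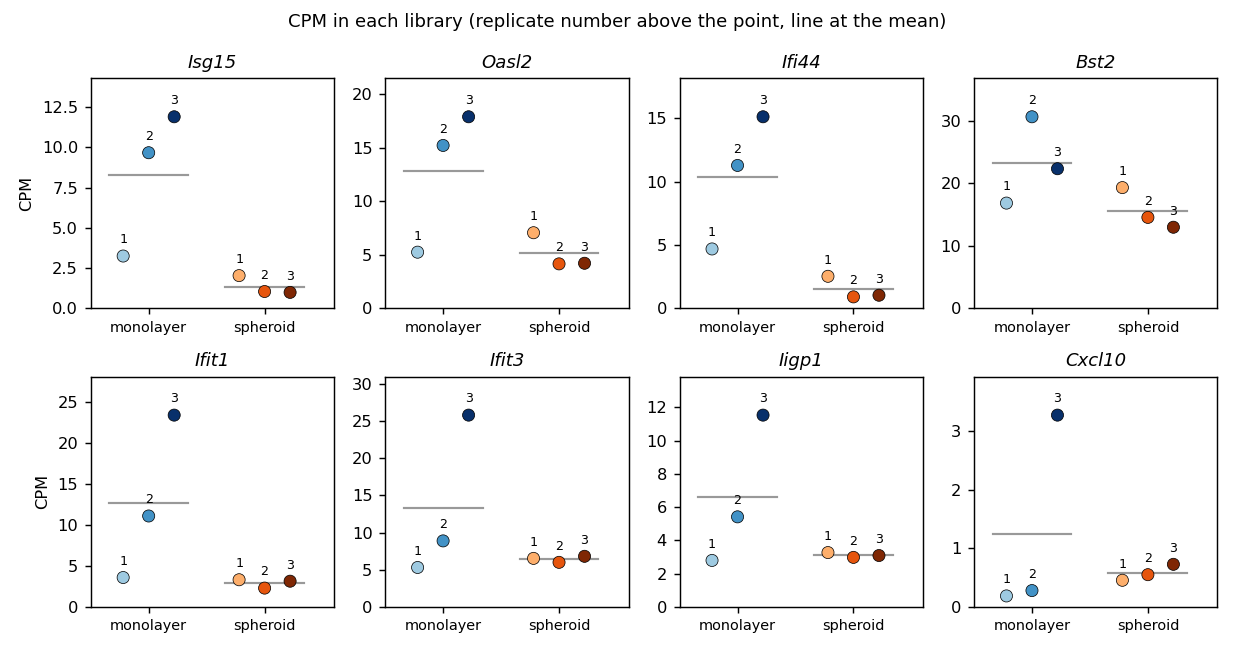
CPM of 8 genes in each library, with the replicate number above the point and a grey line at the mean of the format. In the top row (Isg15, Oasl2, Ifi44, Bst2) monolayers 2 and 3 are both above monolayer 1 and spheroid 1 is the highest spheroid. In the bottom row (Ifit1, Ifit3, Iigp1, Cxcl10) monolayer 3 is the highest library and monolayer 2 lies between it and monolayer 1. For Ifit1 and Iigp1 spheroid 1 is the highest spheroid as well.

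The membrane proteins that hold viruses back gave the highest levels of the list. Per gene length, Ifitm3 had 733 ± 50.2 FPKM in monolayers and 773 ± 43.4 FPKM in spheroids, and Ifitm2 497 ± 18.01 and 695 ± 31.1 FPKM (SD, n = 3). The next member in both formats was Ifnar2, at 48.5 ± 1.08 and 75.6 ± 0.239 FPKM. On the CPM scale, Ifitm3 had 442, 477 and 415 in the monolayers and 482, 459 and 433 in the spheroids, which overlap (0.04 ± 0.06, adjusted p = 0.558). Ifitm2 had 297, 304 and 281 CPM against 417, 408 and 383 CPM and was higher in spheroids (0.45 ± 0.03, adjusted p = 8.54e-13). Ifitm1 was higher as well (1.55 ± 0.32, adjusted p = 6.43e-05), on 8.62, 6.25 and 14.8 reads in the monolayers and 36.2, 32.9 and 20.6 in the spheroids. The formats did not overlap for Ifitm1 and Ifitm2. In Bst2, which encodes tetherin, monolayer 2 was highest, with 16.8, 30.6 and 22.3 CPM against 19.3, 14.5 and 13.0 CPM. Spheroid 1 lay above monolayer 1, and the log2 fold change of -0.58 ± 0.30 did not pass (adjusted p = 0.158).

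The genes of the PARP9 and DTX3L complex, which modifies histones and viral proteins, followed Isg15 in the order of the monolayers, with small differences between formats. Parp9 had 18.3, 25.1 and 26.1 CPM in the monolayers and 19.0, 17.8 and 18.1 CPM in the spheroids (-0.34 ± 0.14, adjusted p = 0.0677). Dtx3l, whose annotation overlaps that of Parp9 on chromosome 16, had 10.4, 15.9 and 17.0 CPM against 11.96, 10.93 and 12.02 CPM (-0.31 ± 0.21, adjusted p = 0.239). Parp14 had 8.23, 10.1 and 15.2 CPM against 10.7, 10.7 and 9.25 CPM (-0.13 ± 0.27, adjusted p = 0.687). None of the 3 passed, and for all of them monolayer 1 lay below at least 1 spheroid. Without monolayer replicate 1, Parp9 and Dtx3l were called lower (-0.49 and -0.51).

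Per gene length, the order of the members differed between formats mainly for the variable genes. In monolayers Isg15 ranked 11 of 38 at 11.6 ± 6.30 FPKM, next to Irf9 (12.1 ± 1.76) and Irf1 (11.5 ± 0.479), from which it did not differ beyond its spread. In spheroids it ranked 24 at 1.95 ± 0.847 FPKM, level with Oasl2 at 1.95 ± 0.638. Ifi44 went from rank 24 to rank 32, and Ifitm1 from rank 32 to rank 22. The lowest members, Oas2, Oas3 and Rsad2, stayed at or below 0.14 FPKM on average in both formats.

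Promoter matches and levels were set side by side. Of 12 tested members with a response element core in the window, 6 were lower in spheroids, 1 was higher and 8 were among the highest 1% in quasi-dispersion, with a median log2 fold change of -0.90. Over all tested genes 37.1% were lower, 37.1% higher and 0.999% among that highest 1%. Of 17 tested members with a window and no match, 6 were lower, 5 higher and 6 among the highest 1%, with a median of -0.25. The 17 without a match include the 4 receptor chains, which were all called higher and of which none was among the highest 1%. The receptors thus weigh on the higher count and the median of that group. A link between the core and the levels was not tested. Irf7, Oasl2 and Ifi44 also had no core in their windows, although their levels followed that of Isg15.

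The likeness of other genes to Isg15 was measured as Pearson's r over the 6 libraries after the mean of each format was removed, which leaves few independent points. Among the members, 10 of 17 that varied enough to be compared had r of at least 0.9, led by Oasl2 (0.999), Usp18 (0.996) and Irf7 (0.974). Among 537 genes outside the list, the 12 most alike had r from 0.949 to 0.986. Among them were Rnf213, Gbp3, Stag3, Apol9a, Zbp1, Flywch2, Lcp2, Chd5, Elapor2, Ppp1r27 and Grk4. Rnf213, Gbp3, Apol9a and Zbp1 belong to the further pathway lists described below. Rnf213, a large ubiquitin ligase gene, had 26.7, 42.0 and 50.5 CPM in the monolayers and 30.9, 24.2 and 21.9 CPM in the spheroids. Between formats 3 of these genes were higher in spheroids and 8 did not pass. Lcp2 and Ppp1r27 were higher by 2.62 and 4.42 on the log2 scale.

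The rest of the pathway was followed in lists of further genes. Of 21 interferon ligand genes 3 were in the tables, and the others, Ifnb1 among them, were not analysed here. The 3 were scarcely detected, with Ifna5 at 0 reads in every library, Ifng at 0 to 2 reads and Ifnz at 8.41 to 19.3 reads. The change of Ifnz did not pass (-0.13 ± 0.35, adjusted p = 0.747). The kinases Jak1, Jak2 and Tyk2 were higher in spheroids (0.17, 0.38 and 0.36). Of 7 negative regulators 5 were higher, 1 lower and 1 did not pass, with Socs1 at 0.57 ± 0.07, Ptpn6 at 0.55 ± 0.24 and Socs3, a feedback inhibitor of cytokine receptors, at 0.47 ± 0.04. Of 11 genes of upstream sensing 6 were higher, 4 lower and 1 did not pass. Over all tested genes, 37.1% were called in each direction. In that list, Ikbke, a kinase that activates IRF3, rose by 0.99 ± 0.06, Cgas, the DNA sensor, had -0.63 ± 0.11, and Sting1, its adaptor, rose by 0.35 ± 0.04. The negative regulators had median differences of 0.11, -0.03 and -0.09 in monolayers 1, 2 and 3, an order opposite to that of the members. For upstream sensing these were 0.01, -0.01 and -0.04. Of its 11 genes 1 reached a 1.5-fold ratio between monolayers, Zbp1, with 1.86, 4.67 and 5.21 CPM.

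Target genes outside the list were also low in monolayer 1. Of 45 tested further interferon-stimulated genes, 21 were lower and 8 higher, against 37.1% of all tested genes in each direction, and 16 did not pass. Their median log2 fold change was -0.35, and 21 of 43 reached a 1.5-fold ratio between monolayers, against 3.34% of all genes. Their median difference was -0.34 in monolayer 1 and 0.26 in monolayer 3. The largest changes among those called were in Ifi207, at 3.74 ± 0.16, Ifi27l2a, at -3.28 ± 0.50, and Slfn2, at 2.30 ± 0.29, and so lay in both directions. Of 13 tested guanylate-binding and immunity-related GTPase genes, 5 were higher, close to the background of 37.1%, 2 were lower and 6 did not pass, with a median difference of -0.62 in monolayer 1 and 0.69 in monolayer 3. The largest rises were in Gbp10 (4.25 ± 0.46), Gbp8 (2.96 ± 0.54) and Gbp9 (2.79 ± 0.14), of which Gbp8 and Gbp10 had a monolayer at 0 reads. Macrophage markers were higher in spheroids beside these rises, and their part in them was not tested.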

How the data were processed

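Per the submitters' processing notes, the tool was HISAT and the build GRCm38.p6. Not given in the sources used here are the counter, its annotation and any strand setting. For each gene the authors deposited expected counts, which may be fractional. They also deposited FPKM, per the file headers, values scaled to transcript length and depth. In a library, 28.9% to 30.6% of the expected counts had decimals, and they were rounded. Rows were kept by filterByExpr at a minimum count of 10. Genes were tested with edgeR 4.0.16 in R 4.3.3 (TMM factors 0.985 to 1.02, robust quasi-likelihood fit, Benjamini-Hochberg adjustment over 13708 genes, threshold 0.05), with SEs from the F statistic. CPM uses TMM-adjusted library sizes. Mean chi-square ratios of replicate pairs were 1.90 to 2.91, above the 1 of counting noise alone, so libraries were not merged and each counted once. Such ratios do not show that the libraries are independent cultures.

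The list of members, the further gene lists and the markers were chosen with earlier results of these data known. Values in every library are given for members called at 2-fold or more, for those with a 1.5-fold ratio within a format at 1 CPM or more, and for receptors, transcription factors and RNA sensors; from each further list up to 3 called genes with the largest change are named. Where counts are few, an SE understates the counting error. Reads carry no molecular identifiers. The scripts were tested on simulated data. Alternatives were other scalings, filters and pseudocounts, DESeq2 1.42.0, limma 3.58.1 on voom or FPKM values, a fit without robust, a replicate block, and leaving out each library. The result of 1 gene of the further lists is not reported here.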

Additional observations from a re-analysis of the deposited data

How the results depend on the processing

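The 6 higher calls held under all alternatives run, and of the 14 lower calls 8 held in every fit that left out 1 library and 6 under every alternative. Members called lower numbered 23 in a fit without the robust option. Leaving out each library in turn gave 8 to 21 lower members, 6 higher members, 4896 to 5021 genes higher, 4800 to 5021 genes lower, a median member change of -0.78 to -0.34 and 11 to 20 members among the highest 1% in quasi-dispersion. Of 544 results of single members under an alternative, 458 kept direction and side of the threshold, 33 lost a call, 38 gained one and 15 changed sign; none of the last was called. Irf3 was 0.000599 with RLE factors, 0.000561 with DESeq2, 0.0322 with library totals, 0.0137 without monolayer replicate 1, 0.0139 without monolayer replicate 2, 0.0116 without spheroid replicate 3, and 0.0330 and 0.0344 on log2 FPKM, and ran from -0.0423 to 0.0139 with 1 library left out. Trim25 was -0.0017 with upper-quartile factors, -0.103 without monolayer replicate 1, -0.0229 without monolayer replicate 2 and -0.0650 without spheroid replicate 1, and at most 0.174 with 1 library left out. Without monolayer replicate 3, Ifit3b was 0.0923, Ifitm3 -0.00514 and Parp14 0.157, and the other ends of their ranges with 1 library left out were -1.35, 0.0969 and -0.319. The cause of these changes was not tested. Another scaling moved the median of all genes by at most 0.03 (log2). Over all genes with a mean of at least 1 CPM, same-numbered libraries shared little, with correlations of their deviations of -0.002, 0.072 and 0.035. Over the 31 members these correlations were -0.648, -0.622 and -0.147, and those of differently numbered libraries ran from -0.538 to 0.749. The numbers were not taken to pair the libraries. A replicate block left 8 members lower and 6 higher, with Isg15 at an adjusted p of 0.0907 and Ifi44 at 0.0872. In that fit 5118 of all tested genes were lower and 5120 higher. Depth limits the members under about 1 CPM: a library with 0 reads, as Rsad2 in monolayer 2, allows up to 3 reads by counting error.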
